A study of Mus musculus with 2 samples.

Results

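The genes described here encode 10 enzymes that make serine, one-carbon units, proline and asparagine. They are Phgdh, Psat1 and Psph of serine synthesis, Shmt1, Shmt2, Mthfd2 and Mthfd1l of folate-bound one-carbon metabolism, Aldh18a1 and Pycr1 of proline synthesis, and Asns, the asparagine synthetase. They were chosen by name, as amino acid enzymes known as targets of the transcription factor ATF4. All 10 were found by symbol among the 27179 genes of both deposited tables. All 10 also reached a mean normalised read count of 10, the limit for the 15212 genes that were examined.

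RNA was sequenced from iBAT (interscapular brown adipose tissue, a depot of fat cells that burn fuel for heat) of untreated C57BL/6N mice aged 20 days that the series describes as male. One library came from wild-type mice and 1 from Ucp1 knockout (Ucp1-KO) mice, whose genotype is given as Ucp1 Δ/Δ. Each library was made from the pooled tissue of 3 animals, so a genotype has 1 value and no spread between animals. The libraries held 52950913 counts (wild-type) and 53216727 counts (Ucp1-KO), and intervals below cover counting error only. Ucp1 itself, the uncoupling protein of brown fat, went from 366473 wild-type counts to 37853 Ucp1-KO counts, so the library labelled Ucp1-KO held 12.7% of the wild-type normalised level (95% counting interval 12.5% to 12.9%).

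The pools differed in more than Ucp1. All 12 adipocyte and brown fat markers were detected in both libraries, with 1.38% and 1.52% of all counts in wild-type and Ucp1-KO. Their median log2 ratio was 0.58, with 11 of 12 higher beyond counting error, 4 of them at least 2-fold, and none lower. Over all genes examined, 31.5% were higher and 30.5% lower beyond counting error, and 7.42% and 9.55% by at least 2-fold. Skeletal muscle markers, 14 of 14, lay at least 2-fold lower (0.621% and 0.0748% of counts). The 4 Y-linked genes were listed at 0 in the wild-type library and at 491 to 3446 counts in Ucp1-KO. The wild-type value is at odds with the series' description of the mice as male. Sex and genotype thus cannot be told apart. Of 10 endothelial markers, 9 were lower beyond counting error (median log2 ratio -0.81), and mitochondrially encoded RNA took 22.4% of wild-type and 36.7% of Ucp1-KO counts. Of 10 macrophage markers (median 0.19), 5 were higher beyond counting error, 3 were at least 2-fold higher and 1 was lower, and of 9 fibroblast and preadipocyte markers (median -0.16), 8 were lower beyond counting error and none 2-fold. The part of any of these in the differences below was not tested, and in bulk tissue fewer cells of a type and less RNA per cell cannot be told apart.

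Serine is made in the cytosol from the glycolytic intermediate 3-phosphoglycerate in 3 enzymatic steps. Serine hydroxymethyltransferases pass a carbon of serine to folate, and parallel sets of enzymes in the cytosol and in mitochondria carry it on for the synthesis of nucleotides and methionine. Proline is made from glutamate by way of pyrroline-5-carboxylate, and asparagine from aspartate and glutamine. ATF4 is the effector of the integrated stress response. It is known to raise transcription of many such genes when mitochondria or the supply of amino acids are disturbed, and it binds with C/EBP partners to a composite element with the core TGATGNAA.

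That core was looked for on both strands to show where the members carry it. In the RefSeq promoter windows (250 bases before to 50 after a start, table build GRCm38.p6), 2 of 10 members held it, Asns and Pycr1, against 3.97% of 32851 windows of all genes. Both windows are printed below 5′ to 3′ on the gene strand, with the match in capitals. They matched the GRCm39 genome exactly, on the minus strand, at chr6:7693160-7693459 for Asns and chr11:120534525-120534824 for Pycr1.
Asns: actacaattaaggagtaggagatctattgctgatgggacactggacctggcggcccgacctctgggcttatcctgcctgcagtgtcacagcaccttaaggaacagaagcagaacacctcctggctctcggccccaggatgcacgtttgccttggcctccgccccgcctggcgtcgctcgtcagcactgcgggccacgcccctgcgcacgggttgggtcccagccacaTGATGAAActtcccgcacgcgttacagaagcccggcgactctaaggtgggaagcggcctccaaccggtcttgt
Pycr1: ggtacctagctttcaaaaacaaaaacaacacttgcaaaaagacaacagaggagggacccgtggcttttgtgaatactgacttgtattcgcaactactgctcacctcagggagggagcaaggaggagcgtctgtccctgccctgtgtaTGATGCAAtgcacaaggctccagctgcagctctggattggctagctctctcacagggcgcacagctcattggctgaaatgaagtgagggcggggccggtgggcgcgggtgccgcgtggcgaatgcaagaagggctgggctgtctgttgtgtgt

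Within 1000 bases either side of the canonical GENCODE transcript start, 7 of 10 members held the core, against 22.0% of 21770 protein-coding genes. The members were chosen as ATF4 targets, so that share and the one in the RefSeq windows are a description of the choice. The stretches below, in GRCm39 and on the gene strand, are those of the 5 members in which the match lay in an intron after the start. They are at chr3:98246524-98246553 (Phgdh), chr10:127357815-127357844 and chr10:127357793-127357822 (both Shmt2), chr6:83294151-83294180 (Mthfd2), chr10:3923748-3923777 (Mthfd1l) and chr19:40576005-40576034 (Aldh18a1). The second Shmt2 match and that of Aldh18a1 are on the opposite strand and read as the reverse complement.
Phgdh: cgccttttgtcTGATGCAAgaccttggcgc
Shmt2, first: agctatggagaTGATGCAAccgagcctcag
Shmt2, second: agcctcagtacTTTCATCAcgcaagggtcc
Mthfd2: ttgctgcagtcTGATGAAAtctgtgagccg
Mthfd1l: gcctccggctcTGATGCAAccgcgccgggc
Aldh18a1: cctttgggcttTTGCATCAcctgtctggtt

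The other 2 matches in that window were the Asns and Pycr1 elements printed above. The Asns element lies 23 bases before the RefSeq start and in the 5′ untranslated exon of the longer GENCODE transcript. No match was found in the windows of Psat1, Psph and Shmt1.

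The members did not all differ in the same direction. Of 10 members, 6 were higher in Ucp1-KO beyond counting error (Mthfd2, Phgdh, Shmt1, Asns, Aldh18a1 and Psat1), 1 was lower (Psph), and 3 differed by less than counting error (Shmt2, Mthfd1l and Pycr1). Over all genes examined, 31.5% were higher and 30.5% lower by the same rule. At least 2-fold higher were 3 members, Mthfd2, Phgdh and Shmt1, and none was at least 2-fold lower, against 7.42% and 9.55% of all genes. The median log2 ratio of Ucp1-KO over wild-type normalised counts was 0.69 over the members and -0.0016 over all genes. Their summed counts were 0.0195% of all wild-type counts and 0.0281% of all Ucp1-KO counts.

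**Figure D1:**
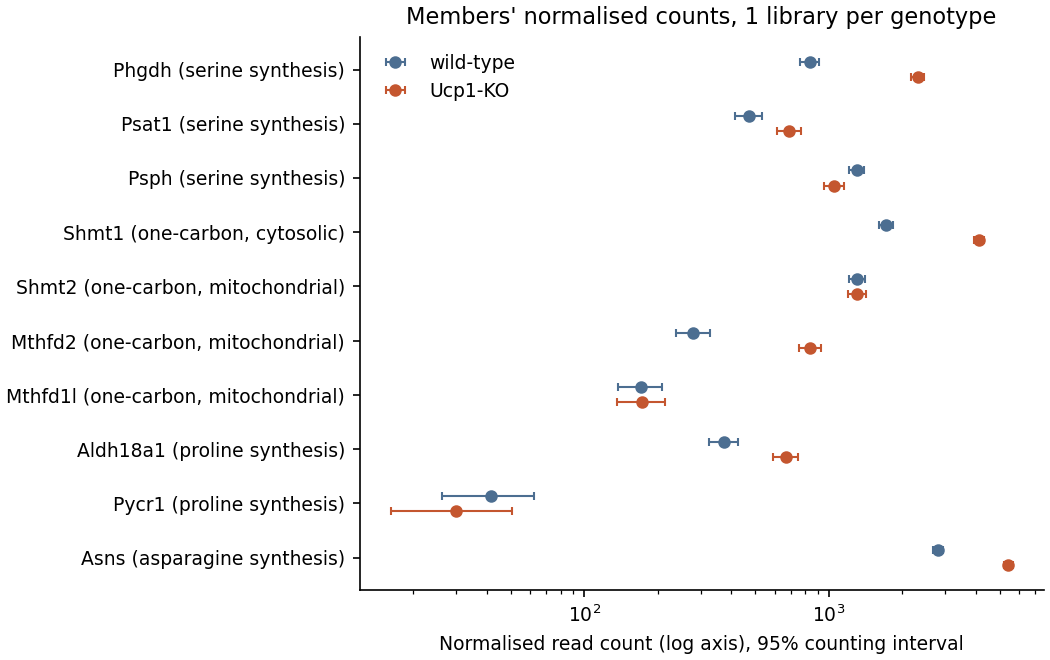
Normalised read counts of the 10 genes (log axis) of both libraries, with 95% counting intervals, 1 library of 3 pooled animals per genotype. Phgdh, Psat1, Shmt1, Mthfd2, Aldh18a1 and Asns lie higher in Ucp1-KO with intervals apart, and the points of Shmt2 and Mthfd1l coincide.

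Serine synthesis differed step by step. Phgdh, the phosphoglycerate dehydrogenase that opens the pathway, had 928 wild-type counts and 2078 Ucp1-KO counts, or 836 and 2305 after normalisation. It was 2.76-fold higher (2.47 to 3.08), above 95.9% of all genes examined. Psat1 (chromosome 19, 15882039 to 15924701, minus strand), the phosphoserine aminotransferase of the next step, had 522 and 618 counts (wild-type first, here and below) and was 1.46-fold higher (1.23 to 1.72). The last enzyme, the phosphatase Psph, lay on the other side. It had 1443 and 949 counts, and its Ucp1-KO level was 0.810 times that of wild-type (0.719 to 0.910). The first step was thus higher by the most and the last step lower.

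These differences among the 3 steps do not depend on scaling, because each pair was read in the same library. There were 1.55 counts of Psph per count of Phgdh in wild-type against 0.457 in the knockout, a ratio 0.294 times as large (exact interval 0.249 to 0.345). For Psat1 over Phgdh the ratio was 0.529 times that of wild-type (0.432 to 0.648). Per transcript length, as given below in RPKM, Psph was above Phgdh in wild-type and below it in Ucp1-KO.

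Counts of Phgdh and Psph carry a limit from the genome. The Phgdh transcript (chromosome 3, 98220484 to 98255047, minus strand of GRCm39) aligned at 9 other places with at least 95% identity over at least 200 bases, up to 98.8% identity, all of them annotated processed pseudogenes. The other 9 members had no such place. How reads matching several places were counted is not stated. Psph (chromosome 5, 129841925 to 129864513, minus strand) shares up to 465 exon bases with Cct6a on the opposite strand. Cct6a, a chaperonin subunit, had 2918 and 2694 counts, and the strand setting of the counting is not stated.

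The cytosolic and mitochondrial serine hydroxymethyltransferases also separated. Shmt1 (chromosome 11, 60661185 to 60708167, minus strand), the cytosolic serine hydroxymethyltransferase, had 1903 wild-type counts and 3700 Ucp1-KO counts. It was 2.39-fold higher (2.21 to 2.59), above 94.7% of all genes. Its exons overlap in part with those of Smcr8 on the opposite strand (2724 and 3055 counts). Its mitochondrial counterpart Shmt2 (chromosome 10, 127352266 to 127358323, minus strand) had 1447 and 1178 counts. The normalised levels were 1304 and 1307, a ratio of 1.00 (0.897 to 1.12). Shmt2 per Shmt1 count was 0.760 in wild-type and 0.318 in Ucp1-KO, 0.419 times as large (0.365 to 0.480).

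Mthfd2 (chromosome 6, 83282673 to 83302890, minus strand), the mitochondrial methylenetetrahydrofolate dehydrogenase and cyclohydrolase, had the highest ratio of the 10 genes, with an interval that overlaps that of Phgdh. It had 310 wild-type counts and 754 Ucp1-KO counts, 2.99-fold higher (2.48 to 3.63) and above 96.5% of all genes. Its paralog Mthfd2l went the other way, with 384 and 221 counts and a log2 ratio of -0.50 (-0.85 to -0.15). The count of Mthfd2 per Mthfd2l count was 0.807 in wild-type against 3.41 in the knockout, a 4.23-fold difference (3.11 to 5.80). These paralogs thus differed in opposite directions beyond counting error.

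Mthfd1l (chromosome 10, 3922870 to 4117081, plus strand), the mitochondrial synthetase that releases formate, had 189 and 155 counts and a ratio of 1.01 (0.738 to 1.38). Mthfd1, the cytosolic enzyme that takes formate up again, had 1103 and 1495 counts and a log2 ratio of 0.74 (0.58 to 0.90). Mthfd1l per Mthfd1 count was 0.605 times that of wild-type (0.439 to 0.854), while Mthfd2 per Mthfd1 count was 1.79 times that of wild-type (1.44 to 2.25). Within the mitochondrial branch, the interval of the Mthfd2 ratio lay above those of Shmt2 and Mthfd1l. Mthfd2 is also known as a gene of dividing cells, so 10 proliferation markers were set beside it. Their median log2 ratio was 0.025, with 1 higher, 2 lower and 7 neither beyond counting error. Over all genes, 31.5% were higher and 30.5% lower by that rule. Bub1 was at 1.04 (-0.14 to 2.35) and Mcm5 at -1.66 (-2.16 to -1.19). The part of these markers in the Mthfd2 difference was not tested.

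**Figure D2:**
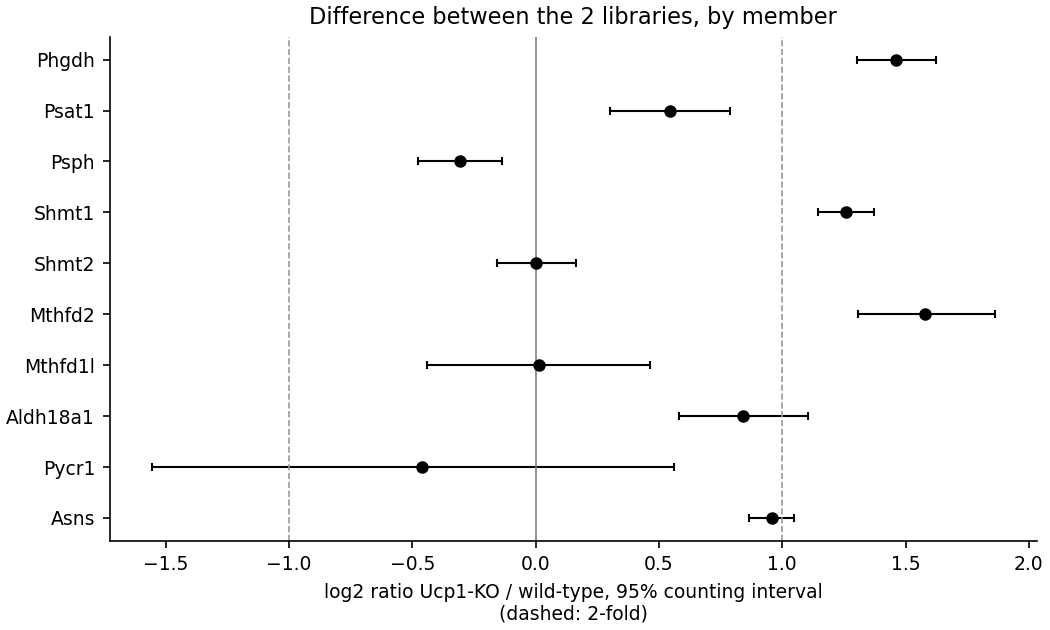
Log2 ratio of Ucp1-KO over wild-type normalised counts for each of the 10 genes with its 95% counting interval; the solid line marks no difference and the dashed lines 2-fold. Mthfd2, Phgdh and Shmt1 lie wholly beyond 2-fold, Psph below 0, and the wide interval of Pycr1 spans 0.

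In proline synthesis, the 2 members differed unequally. Aldh18a1 (chromosome 19, 40538698 to 40576949, minus strand), which makes pyrroline-5-carboxylate from glutamate, had 412 wild-type counts and 600 Ucp1-KO counts, 1.79-fold higher (log2 ratio 0.84, 0.58 to 1.10). Pycr1 (chromosome 11, 120526484 to 120539269, minus strand), which reduces that product to proline in mitochondria, had 46 and 27 counts. At this depth its ratio of 0.726 (0.340 to 1.48) could not show a difference in either direction. Pycr3, a cytosolic pyrroline-5-carboxylate reductase, had 1209 and 842 counts and a log2 ratio of -0.22 (-0.41 to -0.04). Pycr1 per Pycr3 count was 0.0380 in wild-type against 0.0321 in the knockout, 0.843 times as large (0.410 to 1.79), which is not a difference beyond counting error.

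Against the breakdown of proline, Aldh18a1 was compared with Aldh4a1, which oxidises pyrroline-5-carboxylate to glutamate and had 7156 and 6001 counts. Aldh18a1 per Aldh4a1 count was 0.0576 in wild-type and 0.100 in Ucp1-KO, 1.74 times as large (1.44 to 2.10). The ratio of Pycr1 to Prodh, the proline dehydrogenase with 2928 and 1701 counts, was 1.01 times that of wild-type, with an interval of 0.496 to 2.14. Up to 914 exon bases of Aldh18a1 are shared with a long noncoding RNA gene on the opposite strand.

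Asns (chromosome 6, 7671667 to 7728461, minus strand), which makes asparagine from aspartate with the nitrogen of glutamine, had the most counts of the 10 genes. It had 3102 wild-type counts and 4891 Ucp1-KO counts, or 2796 and 5426 after normalisation. It was 1.94-fold higher (1.82 to 2.07), just short of the 2-fold rule. Asrgl1, which breaks asparagine down, had 767 and 738 counts and a log2 ratio of 0.24 (0.03 to 0.45), and Asns per Asrgl1 count was 1.64 times that of wild-type (1.40 to 1.92).

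Of 10 pairs, 4 had a larger ratio in Ucp1-KO (Mthfd2 over Mthfd2l and over Mthfd1, Aldh18a1 over Aldh4a1, Asns over Asrgl1). In 4 the ratio was smaller (Shmt2 over Shmt1, Mthfd1l over Mthfd1, Psat1 and Psph over Phgdh). The 2 pairs with Pycr1 did not differ beyond counting error.

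**Figure D3:**
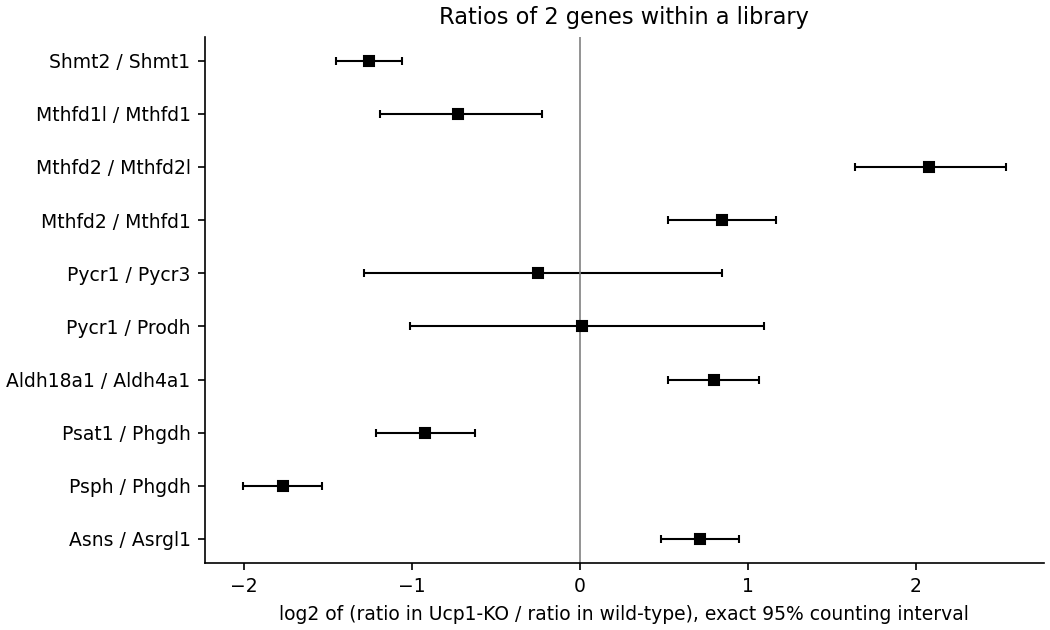
Change in the ratio of 2 genes within a library, as log2 of the ratio in Ucp1-KO over that in wild-type, with exact 95% counting intervals for 10 pairs. Mthfd2 over Mthfd2l lies furthest to the right and Psph over Phgdh furthest to the left, while the 2 Pycr1 pairs span 0.

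Levels of different genes were compared as RPKM, counts scaled by the length of the canonical transcript and by the library's total. In wild-type, Shmt1 (12.6 RPKM, 11.8 to 13.4), Asns (11.4 to 12.6), Shmt2 (11.9) and Psph (11.2, 10.4 to 12.1) came first, and neighbours in that order did not differ beyond counting error. Phgdh followed at 9.26 RPKM (8.43 to 10.1). Psat1 lay at 3.76, Mthfd2 at 2.79 and Aldh18a1 at 2.21, the last pair with overlapping intervals. Mthfd1l (0.961) and Pycr1 (0.461) were lowest.

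The order differed in the Ucp1-KO library. Shmt1 was still first with 24.3 RPKM (23.2 to 25.4), and Phgdh moved from the fifth to the second place with 20.6 RPKM (19.4 to 21.9), not apart from Asns (18.8, 18.0 to 19.5). Shmt2 (9.64) and Psph (7.34) followed, the latter not apart from Mthfd2 (6.74). Psat1 (4.43), Aldh18a1 (3.20), Mthfd1l (0.784) and Pycr1 (0.269) came last. Mthfd2 thus passed Psat1, and the 3 lowest places were unchanged.

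The members with and without the ATF4 core overlapped in their log2 ratios. The 7 members with a match within 1000 bases ranged from -0.46 (Pycr1) to 1.58 (Mthfd2), with a median of 0.84. The 3 without ranged from -0.30 (Psph) to 1.26 (Shmt1), with a median of 0.54. The difference between these groups was not tested. Shmt2, with 2 matches, was at 0.0029, and Shmt1, with none, at 1.26. A match is a description of letters and not a measured binding site.

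**Figure D4:**
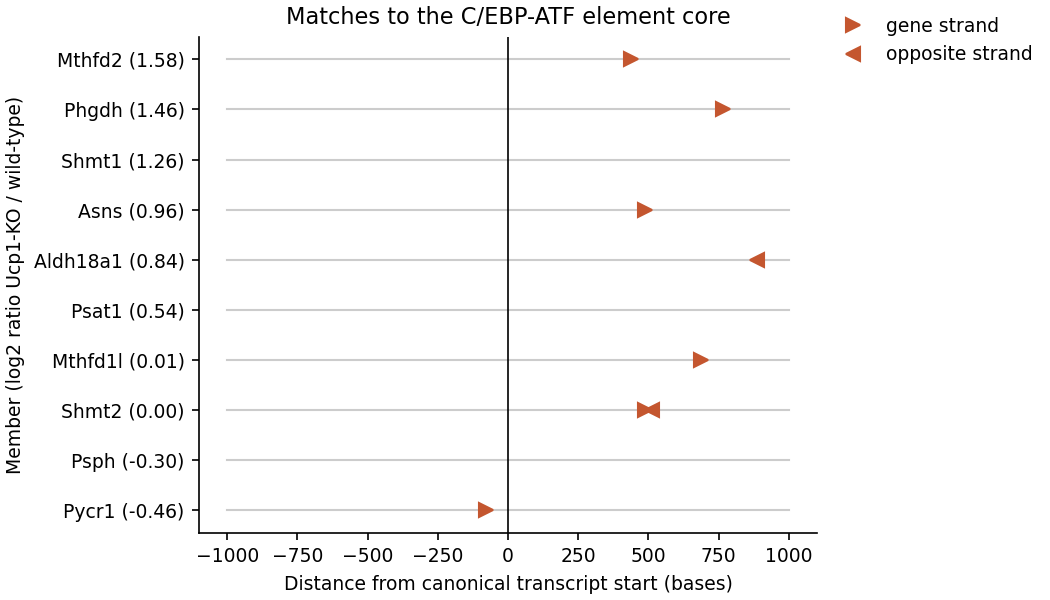
Position of each match to the core relative to the canonical transcript start (bases), with members ordered by log2 ratio of Ucp1-KO over wild-type; triangles point along the strand of the match. Matches occur among members with high ratios (Mthfd2, Phgdh) and with ratios near or below 0 (Mthfd1l, Shmt2, Pycr1), and Shmt1, Psat1 and Psph have none.

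Atf4 itself had 3721 wild-type counts and 8375 Ucp1-KO counts, a log2 ratio of 1.47 (1.39 to 1.55). Of 7 genes for ATF4, the kinases that induce its translation and the mitochondrial relay to them, Atf4 was the 1 gene at least 2-fold higher. Over all genes, 7.42% were at least 2-fold higher. The relay protease gene Oma1 was at 0.36 (0.11 to 0.61) and its substrate Dele1 at -0.23 (-0.35 to -0.12), and the median of the 7 was -0.08.

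Other folate and one-carbon genes gave a mixed picture. Of 20 listed and examined, 7 were higher and 7 lower beyond counting error, against 31.5% and 30.5% of all genes. At least 2-fold higher were 2 and at least 2-fold lower none, against 7.42% and 9.55% of all genes. The median was -0.04. Aldh1l2, the mitochondrial formyltetrahydrofolate dehydrogenase, had 102 and 312 counts and a log2 ratio of 1.91 (1.45 to 2.40). Folr1, a folate receptor, reached 2.03 from 8 and 28 counts (0.44 to 4.17).

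Genes that use serine and glycine differed in both directions, as did genes at large. Of 17 listed, 16 were examined, with 5 higher and 5 lower beyond counting error, against 31.5% and 30.5% of all genes. At least 2-fold higher were 2 and at least 2-fold lower 3, against 7.42% and 9.55% of all genes. The median was -0.09. Gldc, of the glycine cleavage system, had 38 and 8 counts and a log2 ratio of -1.89 (-3.96 to -0.36). Glyctk, the glycerate kinase, was at -1.66 (-2.37 to -1.03), and Sds, a serine dehydratase, at 1.31 (0.08 to 2.72). In the methionine cycle, with 9 of 12 genes examined, none passed 2-fold and the median was 0.22. Mtr, the methionine synthase, was at 0.91 (0.72 to 1.10), Gnmt at -0.83 (-1.45 to -0.25) and Mat2a at 0.42 (0.37 to 0.46).

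Genes beside proline and asparagine synthesis differed in both directions. Over all genes, 31.5% were higher and 30.5% lower beyond counting error, and 7.42% and 9.55% by at least 2-fold. Of 13 proline, ornithine and hydroxyproline genes, 10 were examined, with 2 higher and 6 lower by that rule and a median of -0.33. None was at least 2-fold higher and 3 were at least 2-fold lower. All 3 were collagen prolyl hydroxylase subunits. P4ha1 had 7322 and 2550 counts and a log2 ratio of -1.22 (-1.32 to -1.13), P4ha2 was at -1.21 (-1.40 to -1.03), and P4ha3, with 28 and 2 counts, at -3.24 (-8.91 to -0.79). Of 12 other aspartate, asparagine, glutamine and transaminase genes, 5 were higher and 5 lower beyond counting error, with a median of -0.15. None was at least 2-fold higher and 1 was at least 2-fold lower.

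That gene was Aspg, an asparaginase, with 15160 counts in wild-type against 1433. Its log2 ratio was -3.10 (-3.22 to -2.99), with 1.01% of the genes examined lower still. Asns and Aspg, which make and cleave asparagine, thus differed in opposite directions. Got1, the cytosolic aspartate aminotransferase, was at 0.74 (0.65 to 0.83), and Gls2, a glutaminase, at -0.66 (-1.86 to 0.44).

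Amino acid carriers held the highest median of these lists, 0.76, but their summed normalised counts had a log2 ratio of 0.11. Of 14 carriers examined, 7 were higher and 4 lower beyond counting error, against 31.5% and 30.5% of all genes. At least 2-fold higher were 4 and at least 2-fold lower 2, against 7.42% and 9.55% of all genes. Slc1a5, named for its level, had the highest RPKM of the carriers in both libraries, 187 in wild-type and 87.4 in Ucp1-KO. Slc7a5, the light chain of a carrier of large neutral amino acids, had 32 and 151 counts and a log2 ratio of 2.52 (1.75 to 3.42). Its heavy chain Slc3a2, named after its value was seen, was at 1.64 (1.55 to 1.74). Slc1a4, a carrier of alanine and serine, was at 1.78 (1.34 to 2.25), whereas the glutamine carrier Slc38a3 was at -2.22 (-2.72 to -1.76).

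**Figure D5:**
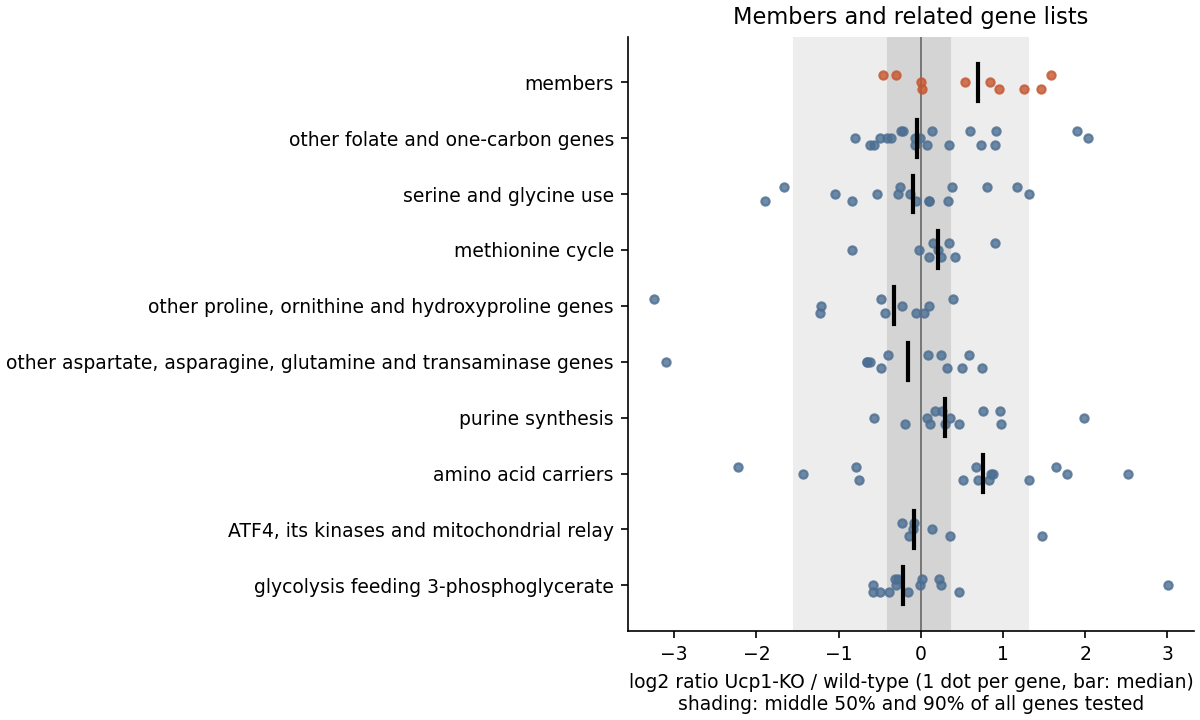
Log2 ratio of Ucp1-KO over wild-type for each examined gene (dots) of the members and 9 related lists, with the list's median (bar); shading marks the middle 50% and 90% of all 15212 genes. The members and the amino acid carriers have the highest medians, 0.69 and 0.76, and each list has genes on both sides of 0.

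Scaling to total counts in place of median-of-ratios factors shifted all genes by a median of -0.31, which changed 2 members' place relative to counting error. Psat1 was then at 0.24 (-0.0061 to 0.48), no longer higher, and Shmt2 at -0.30 (-0.46 to -0.15), lower. Shmt1 (0.95) then fell short of 2-fold. With mitochondrially encoded RNA left out of the totals, the median of all genes was -0.015, and 6 members were higher and 1 lower.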

How the data were processed

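Poly-A-enriched directional RNA-seq libraries of iBAT were compared, 1 per genotype. The authors deposited unnormalised featureCounts tables, whose values are whole-number read counts for each gene. Per the labels, Trim Galore and HISAT2 were used with build mm39. Versions, annotation, and strand and multi-mapping settings are not given in the sources used here. Genes without a symbol (1319 of 27179, 0.156% and 0.121% of counts) were kept.

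For scaling, DESeq2 1.42.0 in R 4.3.3 gave size factors by median of ratios of 1.11 for wild-type and 0.901 for Ucp1-KO. Log2 ratios carry a pseudocount of 0.5. A gene was examined where its normalised counts averaged 10 or more, and the size rule was 2-fold. Of genes with 1 to 10 counts, 70.7% and 73.4% were even, a pattern given by counting both mates, so exact 95% intervals (Poisson for counts, Clopper-Pearson for ratios, conditional for pairs of genes; scipy 1.17.1) used counts divided by 2. A list is described by its counts and median. Positions and lengths came from GENCODE M39 (GRCm39), joined by symbol for 200 of 200 listed genes; copies were sought with BLAST+ 2.17.0. Intervals were tested only on simulated counts drawn as whole read pairs, the form they assume, which cannot show how they perform on these libraries.

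The members, 17 other lists and gene pairs were chosen with earlier results of these data known. Named were all members, paired genes, Atf4, Ucp1 and up to 3 genes of largest log2 ratio per list, with exceptions stated. Some genes of these lists are not reported here by name.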

Additional observations from a re-analysis of the deposited data

How the results depend on the processing

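No paired analysis was possible because there was 1 library per genotype, which also left no library to leave out. Scaling to total counts lowered the members' median log2 ratio to 0.39 and turned the medians of the methionine cycle (-0.091) and purine synthesis (-0.0088) negative, by the shift of all genes. It gave 732 genes at least 2-fold higher and 2320 lower in place of 1128 and 1453, so that the higher share of these went from 43.7% to 24.0%. Without a filter these were 2187 and 2844, with a minimum mean of 50 they were 617 and 811, with a log2 ratio of at least 1.5 they were 603 and 796, and with intervals wholly beyond 2-fold 414 and 566, by construction of the rules. At a log2 ratio of at least 1.5, 1 member (Mthfd2) remained. The core TGATGCAA was found in the promoter window of 1 member, and TGATGNAA within 1000 bases of the start, a window chosen after seeing the data, in 7. TMM factors (edgeR 4.0.16) and totals without mitochondrial RNA left the counts of members higher (6) and lower (1) beyond counting error unchanged. A pseudocount of 5, which does not enter the intervals, left the 10 members' log2 ratios inside them. Depth limits Pycr1, Mthfd1l, Folr1, Gldc and P4ha3, whose intervals are wide.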

Other observations

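Purine synthesis, which consumes one-carbon units, had a median log2 ratio of 0.30 over 13 examined genes. Of these, 9 were higher and 2 lower beyond counting error, against 31.5% and 30.5% of all genes. The difference was largest for Impdh1, the inosine monophosphate dehydrogenase, from 11848 to 38259 counts, a log2 ratio of 1.99 (1.95 to 2.03). Its paralog Impdh2 was at 0.97 (0.83 to 1.11) and Gmps, the next enzyme toward guanine nucleotides, at 0.98 (0.90 to 1.06). The 3 genes lead from inosine to guanosine monophosphate.

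Glycolysis supplies 3-phosphoglycerate to Phgdh, and 14 of its genes had a median of -0.21. Pgam1, Eno1 and Pkm among them act after 3-phosphoglycerate, so the median does not describe its supply alone. Of the 14 genes, 4 were higher and 8 lower beyond counting error, against 31.5% and 30.5% of all genes. None was at least 2-fold lower and 1 was at least 2-fold higher, against 9.55% and 7.42% of all genes. That gene was Aldoc, an aldolase, with 46 wild-type and 304 Ucp1-KO counts and a log2 ratio of 3.01 (2.39 to 3.72). Hk2 (-0.57) and Pfkl (-0.58), of the hexokinase and phosphofructokinase steps, were lower.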
